A study of Mus musculus with 8 samples.

Results

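Collagen chain genes were compared between the inner lining of the thoracic aorta of 4 mice given tamoxifen to delete Mef2c in endothelium (EKO) and of 4 control littermates. The chains were chosen by name, as probe sets whose single gene symbol reads Col, a number, a and a number. This gave 42 chains among 30063 genes with a chosen probe set, each with 1 probe set. The probe sets of Col7a1 and Col6a4 also carried another symbol and were left out. By the structure of their proteins, 11 chains were fibrillar, 9 network-forming and 9 FACIT (fibril-associated collagens with interrupted triple helices), and the other 13 were beaded-filament, multiplexin, transmembrane or remaining chains.

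All 8 mice were female and carried Cdh5-CreERT2, a tamoxifen-inducible Cre recombinase driven by the promoter of VE-cadherin, together with floxed Mef2c. From 10 weeks of age EKO mice received tamoxifen on 5 consecutive days. Controls received its vehicle, sunflower seed oil with 10% ethanol, so the recombinase was present in both groups, and the drug and the deletion cannot be told apart. Aortas were taken on day 14 after the first injection, and each array, an Affymetrix Mouse Transcriptome Array 1.0, held RNA flushed from the lumen of 1 aorta. Values are log2 expression, and a difference is EKO minus control. Because the flushed RNA is a bulk sample, fewer cells of a type and less RNA per cell cannot be told apart.

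Every collagen is a trimer of chains that wind into a triple helix through repeated glycine-led triplets. Fibrillar types I, III and V give the media and adventitia of an artery their tensile strength. Type IV forms the sheet of the basement membrane under the endothelium, type VIII a network beneath it, and FACIT chains sit on the surface of fibrils. In the aortic wall fibrillar chains are made mainly by smooth muscle cells and fibroblasts, and type IV chains by endothelial and smooth muscle cells. Mef2c encodes a MADS-box transcription factor.

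Mef2c itself read 9.77 ± 0.11 in control and 9.75 ± 0.20 in EKO arrays (SD, n = 4 each). The difference of -0.03 (95% confidence interval -0.28 to 0.23, limma adjusted p = 0.946) was smaller than the spread between arrays. One probe set stood for the gene and the labels do not name the floxed exons, so this value does not check the deletion. The defining endothelial markers were present, with Cdh5 at 16.4 and Pecam1 at 18.2 in controls, although Robo4 (6.17) and Kdr (6.75) lay below the medians of the array's control probe sets marked neg. Those medians ran from 7.34 to 7.45 and are used here as a background level.

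Of the 42 chains 21 had a mean over all arrays above 6.14, the median of all probe sets, and entered the test over 16232 genes. In limma 0 chains passed an adjusted p of 0.05, where 0% of all genes tested did, while 1449 genes (8.93%) and 1 chain had an unadjusted p under 0.05 in either direction. Without moderation of the variances 0 genes passed as well. The chains' adjusted p lay between 0.552 and 0.994. Of the 21 tested chains 12 were higher and 9 lower, with a median difference of 0.02, beside -0.02 over all genes tested. Of tested fibrillar chains 4 of 6 were lower (median -0.12). All 5 fibrillar chains below the level filter were higher, as were 76.3% of all genes below it, and over all 11 fibrillar chains the median was 0.04. Of all genes tested 44.9% were higher. Network chains had 3 of 6 on each side (median 0.00), FACIT chains had 4 of 6 higher (0.02) and the other classes 3 of 3 higher (0.10). The medians of the classes were not tested against each other. Scaling decides the sign of the overall median. With quantile normalization 13 of 21 chains were lower (median -0.03, beside -0.02 over all genes). With each array centred on its median over all probe sets 16 of 21 were lower (median -0.05, beside -0.08). The median of the tested fibrillar chains was -0.14 with quantile normalization and -0.18 with that centring.

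**Figure D1:**
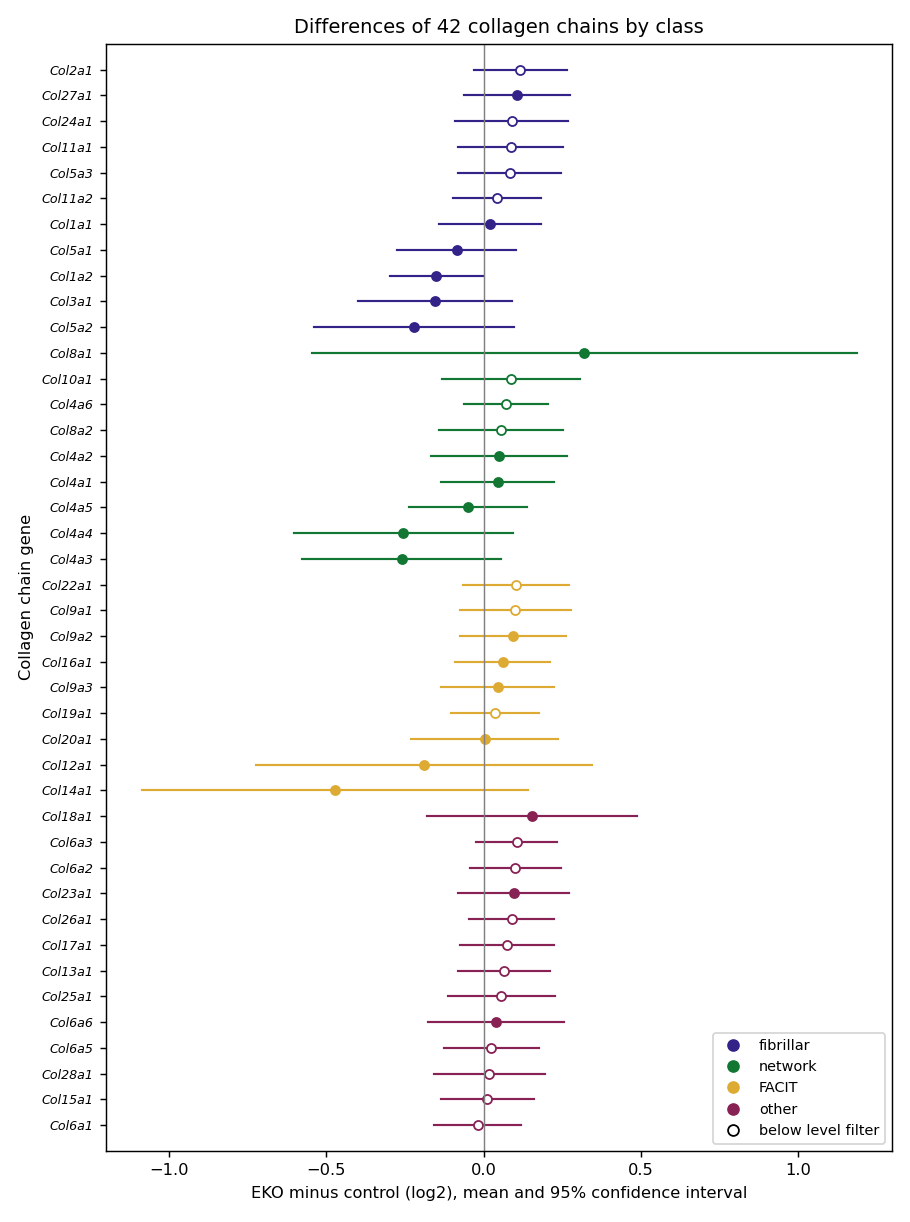
Difference between EKO and control arrays (log2, point) with its 95% confidence interval (line) for the 42 collagen chains, coloured by class, n = 4 arrays a group. Open points are chains below the level filter. Every interval includes 0 apart from that of Col1a2 (-0.30 to -0.002), and those of Col14a1 and Col8a1 are the widest.

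The probe sets of most chains read low on these arrays. Of the 21 tested chains 12, and of the 21 not tested all 21, read below the neg median on every array. Among the 12 were Col1a1, Col1a2 and Col3a1, which encode the chains of the main arterial fibrils. For the 21 chains not tested the level filter nearly fixes this count, since 6.14 lies far below the neg medians. The array medians over all probe sets (6.06 to 6.24) lay below the neg medians too, so low readings are not particular to collagen chains. The share over all genes tested was not counted. Chains above the neg median on all 8 arrays were Col5a2, Col4a1, Col4a3, Col4a4 and Col23a1. A difference near background can understate a change of the transcript. Levels are not compared between chains, since each probe set has its own brightness.

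Among fibrillar chains Col1a2, the second chain of type I collagen, had the smallest p of all members. Its control values were 6.90, 6.99, 6.99 and 7.04 on arrays 1 to 4, and its EKO values 6.88, 6.79, 6.89 and 6.77. Each EKO array lay below each control array, the nearest being EKO array 3 and control array 1. The difference was -0.15 (SE 0.06, limma unadjusted p = 0.0471, adjusted p = 0.552), a 1.11-fold lower level at a signal below the neg median. It was the only tested chain under an unadjusted p of 0.05 in either direction, 1 of 21 or 4.76%. Of all genes tested 8.93% reached that p in either direction, and 3.51% with EKO lower. It was also the only one whose groups did not overlap, where 2.67% of all genes tested lay apart with EKO lower and 3.41% with EKO higher. With arrays centred on their medians over all probe sets the difference of Col1a2 was -0.21. Its groups then overlapped, with EKO array 1 above control array 1.

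The promoter of Col1a2 is printed because this chain stands at the head of the fibrillar results. These are the 250 bases before its start in RefSeq, chr6:4505368-4505617, plus strand of GRCm38.p6, written 5′ to 3′. Capitals mark CCAAT, beginning 109 bases before the start, and GGGCGG, beginning 205 and 188 bases before it.

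Col1a2: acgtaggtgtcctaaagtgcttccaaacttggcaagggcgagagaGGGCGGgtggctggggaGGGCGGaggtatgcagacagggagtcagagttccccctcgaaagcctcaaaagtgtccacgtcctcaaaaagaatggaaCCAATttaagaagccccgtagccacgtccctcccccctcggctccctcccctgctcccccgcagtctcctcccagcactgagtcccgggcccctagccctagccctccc

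RefSeq's table held such a promoter for 33 of the 42 chains. On either strand CCAAT stood in 11 of them (33.3%, beside 37.5% of 27025 genes), TATAAA in 5 (15.2%, beside 14.3%) and GGGCGG in 19 (57.6%, beside 35.4%). The MEF2 consensus stood in 1 (3.03%, beside 3.42%), that of Col13a1, a transmembrane collagen below the level filter. The collagen promoters had a median GC content of 59.4%, against 52.4% over all, and the GC-rich motif was not set against promoters of equal GC content. A match describes the letters of the window and no binding.

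The partner chain Col1a1 did not follow Col1a2 between the groups. Its control values were 6.55, 6.61, 6.67 and 6.79, and its EKO values 6.72, 6.66, 6.68 and 6.64. All EKO values lay within the control range, and the difference was 0.02 (95% confidence interval -0.14 to 0.18). It turned to -0.03 with quantile normalization and to -0.05 with arrays centred on all probe sets.

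Col3a1, the single chain of type III collagen, read 6.61, 6.68, 6.74 and 7.09 in control arrays and 6.70, 6.63, 6.64 and 6.54 in EKO arrays. Control array 4 stood above the others, and the groups overlapped. The difference of -0.15 (SE 0.11, limma adjusted p = 0.659) was -0.05 without control array 4 and -0.04 with fibroblast markers as a covariate.

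Col5a2, a chain of type V collagen, which sits inside type I fibrils and limits their width, was the fibrillar chain clear of background on all arrays. Control arrays read 9.91, 10.50, 9.88 and 10.12, and EKO arrays 9.79, 9.84, 9.87 and 10.03. Only EKO array 4 lay inside the control range, while control array 2 was highest. The difference was -0.22 (SE 0.14, 95% confidence interval -0.54 to 0.10, limma adjusted p = 0.636), and -0.09 without control array 2.

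Its partner Col5a1 read 7.29, 7.52, 7.47 and 7.46 in control arrays and 7.36, 7.19, 7.42 and 7.42 in EKO arrays, with overlapping groups. The difference was -0.09 (SE 0.08), and -0.03 without EKO array 2. The long fibrillar chain Col27a1 was the highest tested fibrillar chain by difference. It read 6.36 to 6.45 in control and 6.40 to 6.63 in EKO arrays, a difference of 0.11 (SE 0.07, limma adjusted p = 0.661) that was 0.04 with arrays centred on all probe sets. The cartilage chains Col2a1, Col11a1 and Col11a2, with Col5a3 and Col24a1, lay below the level filter.

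**Figure D2:**
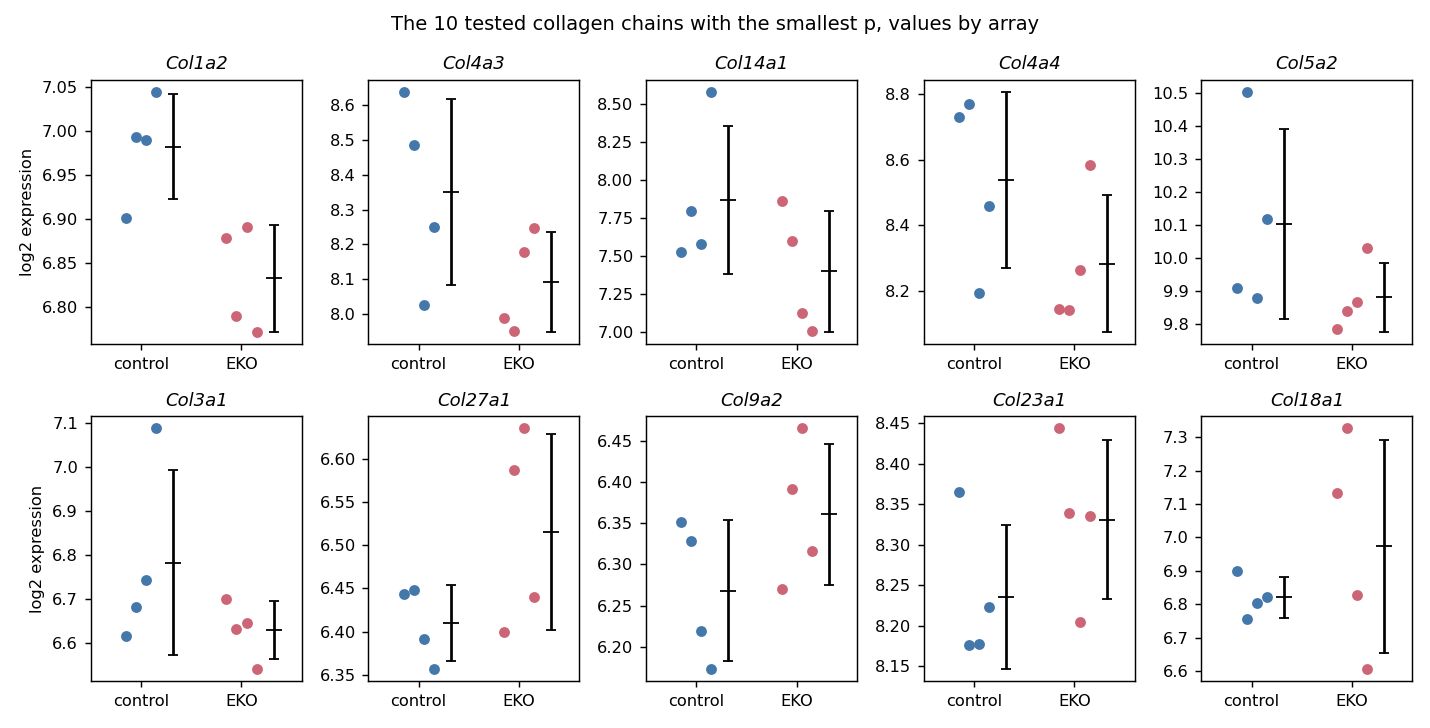
Log2 expression on each array (points) with the group mean and SD (bars) for the 10 tested collagen chains with the smallest p, 4 arrays a group, on axes that do not start at 0. Only for Col1a2 do the EKO points lie wholly below the control points.

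Among network chains, Col4a3 and Col4a4, which join with the Col4a5 chain in the mature basement membranes of kidney and lung, were the lowest by difference. Col4a3 read 8.64, 8.49, 8.03 and 8.25 in control arrays and 7.99, 7.95, 8.18 and 8.25 in EKO arrays. Col4a4 read 8.73, 8.77, 8.19 and 8.46 in control arrays and 8.14, 8.14, 8.26 and 8.59 in EKO arrays. For both genes control arrays 1 and 2 were the highest, EKO arrays 1 and 2 the lowest, and the groups overlapped. The differences were -0.26 (SE 0.14, limma adjusted p = 0.605) and -0.26 (SE 0.15, 0.625). With smooth muscle markers as a covariate they were -0.15 and -0.14, and with fibroblast markers -0.40 each. Col4a3 was -0.16 without control array 1.

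Col4a3 and Col4a4 moved together over the 8 arrays, with Pearson r of 0.94 (exact permutation p = 0.000372, adjusted over 4 pairs 0.00149) and Spearman rho of 0.95 (exact permutation p = 0.00114, adjusted 0.00456). Without the 2 arrays farthest from the median of Col4a3, r was 0.91 (exact permutation p = 0.00694, adjusted 0.0278) and rho 0.94, whose adjusted exact permutation p of 0.0667 no longer passed, and with each group's mean removed it was 0.92. The 2 genes are known to lie head to head and to be read outward from a shared stretch. RefSeq's table held the side of Col4a4, printed here as the pair with the highest correlation (250 bases before the start, chr1:82586850-82587099, minus strand of GRCm38.p6, 5′ to 3′, with no match to any of the motifs searched and hence no capitals).

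Col4a4: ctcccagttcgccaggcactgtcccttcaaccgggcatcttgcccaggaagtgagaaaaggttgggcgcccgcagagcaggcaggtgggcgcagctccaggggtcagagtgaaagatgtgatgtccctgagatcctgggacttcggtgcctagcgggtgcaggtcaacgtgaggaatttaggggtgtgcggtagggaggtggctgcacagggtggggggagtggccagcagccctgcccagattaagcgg

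Col4a1 and Col4a2 encode the chains of the common type IV collagen of vascular basement membranes. Col4a1 read 7.47, 7.60, 7.50 and 7.43 in control arrays and 7.70, 7.48, 7.57 and 7.43 in EKO arrays. Col4a2 read 6.99, 7.003, 7.09 and 7.04 in control arrays and 7.32, 7.08, 7.04 and 6.88 in EKO arrays. EKO array 1 was highest for both genes, and the groups overlapped. Their differences were 0.05 each (SE 0.08 and 0.10, 95% confidence intervals -0.13 to 0.23 and -0.17 to 0.27). Without EKO array 1 the differences were -0.005 and -0.03, and with arrays centred on all probe sets -0.02 each.

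These genes too are divergent. RefSeq places the start of Col4a2 on the plus strand at 11312805 and that of Col4a1 on the minus strand at 11312826 of chromosome 8, so that the first bases of both transcripts overlap by 22 bases, shown to make the arrangement visible (chr8:11312805-11312826, plus strand, GRCm38.p6). Capitals mark GGGCGG.

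Col4a1 and Col4a2 starts: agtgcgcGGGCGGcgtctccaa

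Col4a1 and Col4a2 correlated with r = 0.74 (exact permutation p = 0.0419, adjusted 0.0837) and rho = 0.45 (exact permutation p = 0.267, adjusted 0.357). The relation rested on few arrays, since r was 0.46 (exact permutation p = 0.371) without the 2 farthest from the median. Col5a1 and Col5a2 gave r = 0.62 (exact permutation p = 0.110, adjusted 0.147) and rho = 0.69 (exact permutation p = 0.0694, adjusted 0.139). Col1a1 and Col1a2 gave r = 0.32 (exact permutation p = 0.459) and rho = 0.17 (exact permutation p = 0.703). Without the 2 farthest arrays their r was -0.17 (exact permutation p = 0.747), and with each group's mean removed 0.77 (permutation p = 0.0137, adjusted 0.0274). This last p is approximate, since removing the means ties the values of a group to each other. Of 8 partner pairs listed these 4 had both chains tested, and all p are two-sided.

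**Figure D3:**
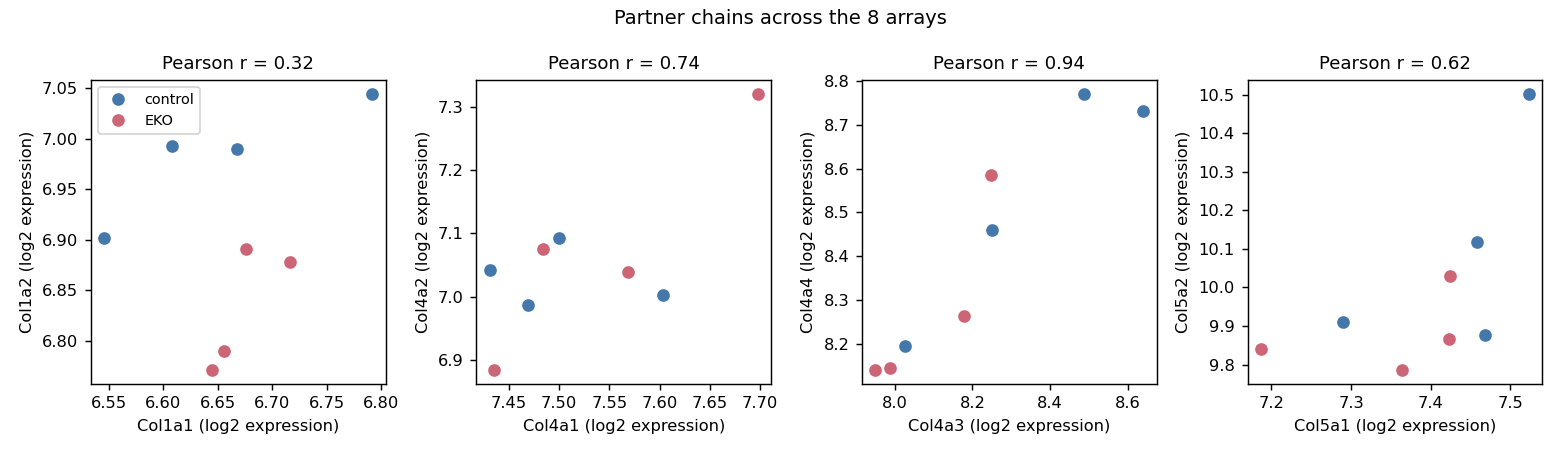
Log2 expression of the second chain (y axis) against the first (x axis) for the 4 partner pairs, 1 point per array, coloured by group. The points of Col4a3 and Col4a4 rise together (r = 0.94), and in the panel of Col4a1 and Col4a2 (r = 0.74) EKO array 1 stands at the upper right.

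Col8a1, a chain of the short-chain type VIII network that smooth muscle cells lay down when they migrate, had the largest positive difference and one of the widest spreads. It read 7.29, 6.67, 7.10 and 7.77 in control arrays and 8.18, 8.16, 6.62 and 7.15 in EKO arrays. EKO arrays 1 and 2 were the highest of all 8, and EKO array 3 the lowest. At 0.32 (SE 0.38, limma adjusted p = 0.794) the difference was smaller than the spread between arrays, and its 95% confidence interval ran from -0.54 to 1.19. Leaving out EKO array 1, EKO array 2 or control array 2 gave 0.10, 0.11 and 0.14, and leaving out EKO array 3 or control array 4 gave 0.62 and 0.51. The mean of 9 tested smooth muscle markers was highest on EKO array 1 as well (8.23) and lay between 7.52 and 7.90 on the others. Of these markers Acta2, Tagln, Synpo2 and Smtn were highest on that array, while Myh11, Cnn1, Myocd, Lmod1 and Des were not. With the smooth muscle mean as a covariate Col8a1 stood at 0.11, and with fibroblast markers at 0.61. The part of smooth muscle cells in this difference was not tested. The other network chain tested, the X-linked Col4a5, differed by -0.05 (SE 0.08). Col8a2, Col4a6 and the growth-plate chain Col10a1 lay below the level filter.

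Among FACIT chains Col14a1, which binds to the surface of type I fibrils in the adventitia, had the lowest difference of all members. It read 7.53, 7.80, 7.58 and 8.58 in control arrays and 7.86, 7.60, 7.13 and 7.01 in EKO arrays. Control array 4 was highest, EKO arrays 3 and 4 lay below every control array, and EKO arrays 1 and 2 lay among them. At -0.47 (SE 0.27, limma adjusted p = 0.618), a 1.39-fold lower level, its 95% confidence interval ran from -1.09 to 0.14. Without control array 4 it was -0.24, and with smooth muscle markers as a covariate -0.72.

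Fibroblast markers were lower in the same direction. Of 9 tested 7 were lower and 0 passed. Their list mean was 9.26 to 9.87 in control and 9.003 to 9.59 in EKO arrays, highest on control array 4. It was nearly as high on control array 3 (9.80), where Col14a1 read 7.58. The mesothelial and skeletal muscle marker means were highest on control array 4 too (9.74 and 8.43). With the fibroblast mean as a covariate Col14a1 stood at -0.22 and Col12a1 at -0.44. The part of fibroblasts in these differences was not tested.

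Col12a1, a FACIT chain of tissues under strain, read 7.30, 7.98, 6.91 and 7.02 in control arrays and 7.09, 6.91, 7.47 and 6.96 in EKO arrays. Control array 2 was highest and the other arrays overlapped. The difference of -0.19 (SE 0.23) turned to 0.04 without control array 2. Col9a2, a chain of cartilage type IX collagen, read 6.17 to 6.35 in control and 6.27 to 6.47 in EKO arrays (0.09, SE 0.07), and was 0.03 with quantile normalization. Col16a1 (0.06), Col9a3 (0.04) and Col20a1 (0.003) had overlapping groups, while Col9a1, Col19a1 and Col22a1 lay below the level filter.

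Of the other classes 3 chains were tested. Col18a1, the multiplexin of endothelial basement membranes whose C-terminal fragment is endostatin, read 6.90, 6.75, 6.81 and 6.82 in control arrays and 7.13, 7.33, 6.83 and 6.61 in EKO arrays. EKO arrays 1 and 2 lay above every control array and EKO array 4 below every one, so the EKO spread was wide around a narrow control group. The difference was 0.15 (SE 0.15, limma adjusted p = 0.743), 0.04 without EKO array 2 and 0.28 without EKO array 4. Col23a1, a transmembrane collagen, read 8.18 to 8.37 in control and 8.20 to 8.44 in EKO arrays (0.10, SE 0.08), and stood at 0.03 with arrays centred on all probe sets. Col6a6, of the beaded filaments, differed by 0.04 (SE 0.09).

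The chains below the level filter were nearly all slightly higher in EKO arrays, and most of the other genes below it were higher as well. Of the 21 such chains 20 were higher, by a median of 0.07 and at most 0.12. Of all 13831 genes below the filter 76.3% were higher, also with a median of 0.07. The groups did not overlap for 3 of the 21 chains (14.3%), each higher in EKO, where 5.24% of all genes below the filter lay apart with EKO higher and 0.470% with EKO lower. These were Col6a3 (0.11) and Col6a2 (0.10), chains of the type VI beaded filaments around cells, and Col26a1 (0.09). With each array centred on its median over all probe sets, the groups of each of these chains overlapped. The share of all genes lying apart was not counted on centred values.

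**Figure D4:**
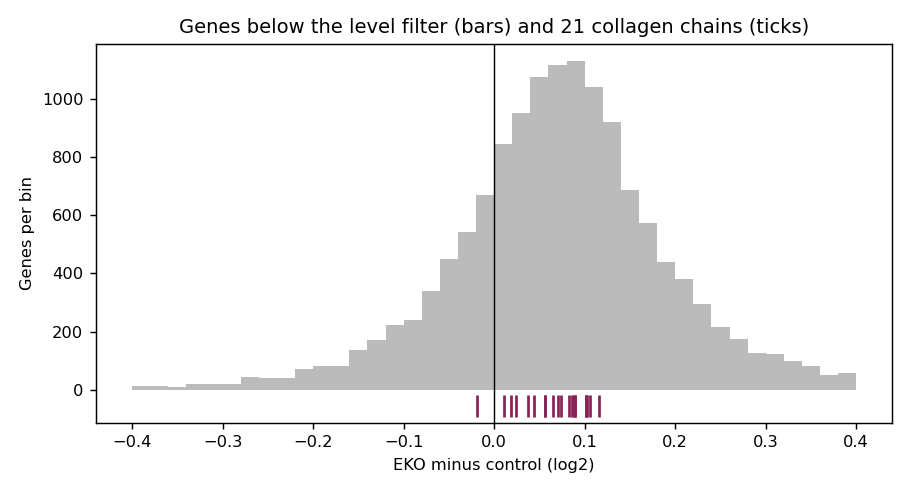
Number of genes (bars, y axis) in bins of 0.02 of the difference between EKO and control arrays (x axis, log2) for the genes below the level filter, with the 21 collagen chains as ticks. 226 genes lie outside the axis limits of -0.4 to 0.4. Both the bars and the ticks are centred to the right of 0, with medians of 0.07.

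Col6a3 read 5.72, 5.71, 5.78 and 5.79 in control arrays and 5.83, 5.88, 5.84 and 5.88 in EKO arrays. Col6a2 read 5.85, 5.71, 5.79 and 5.85 in control arrays and 5.99, 5.89, 5.87 and 5.86 in EKO arrays. Their partner Col6a1 read 5.49 to 5.56 in control and 5.41 to 5.56 in EKO arrays, a difference of -0.02. In the fit over all 30063 genes the limma adjusted p of these chains lay between 0.593 and 0.922.

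The array median over all probe sets moved with this shift. It was 6.06 to 6.15 in control and 6.099 to 6.24 in EKO arrays, highest on EKO array 2. With arrays centred on that median 13 of the 21 chains were higher (median 0.01), beside 53.6% of all genes below the filter (median 0.01). The level filter is itself the median of all probe sets, so this centring brings genes below it near 0 largely by construction. The cause of the shift was not tested. Col8a2 (0.06) and Col15a1 (0.01), the second multiplexin, read 5.82 to 6.19 and 5.81 to 5.98 over all arrays.

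Genes of collagen biosynthesis, collagen receptors and collagen degradation were counted from 6 lists, with 0 genes past the limma threshold in each. An unadjusted p under 0.05 was reached by 3 of 10 folding and secretion genes, by 1 gene each in 4 other lists of 4 to 13 tested genes, and by 0 of 4 degradation genes, beside 8.93% of all genes tested. In the endoplasmic reticulum, folding and secretion genes had 8 of 10 lower (median -0.17). Serpinh1, which encodes the collagen chaperone HSP47, read 7.86, 8.22, 8.17 and 7.96 in control arrays and 7.91, 7.51, 7.78 and 7.61 in EKO arrays. Only EKO array 1 overlapped the control group, and the difference was -0.35 (SE 0.12, limma unadjusted p = 0.0158, adjusted p = 0.524). Sec23a (-0.24, SE 0.09) and Sec24d (-0.30, SE 0.13), coat proteins of the vesicles that carry procollagen, and the chaperone Hspa5 (-0.22, SE 0.11) followed, with adjusted p of 0.545 to 0.585.

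Hydroxylation and glycosylation genes had 9 of 13 lower (median -0.02). The prolyl 3-hydroxylase P3h2 read 7.07, 6.76, 6.999 and 6.85 in control arrays and 7.45, 7.25, 7.86 and 6.998 in EKO arrays, a difference of 0.47 (SE 0.17, limma adjusted p = 0.538) with only EKO array 4 inside the control range. The prolyl 4-hydroxylase subunit P4ha3 differed by 0.59 (SE 0.35), with EKO array 1 at 8.48 and the other EKO arrays at 6.54 to 7.41. The lysyl hydroxylases Plod2 (-0.26) and Plod1 (-0.12) were below 0 by difference.

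Outside the cell, propeptide processing genes had 4 of 5 lower (median -0.11). Bmp1, the C-proteinase of procollagen, read 8.44, 9.04, 9.10 and 9.11 in control arrays and 8.72, 8.31, 8.41 and 8.68 in EKO arrays, a difference of -0.40 (SE 0.17, limma adjusted p = 0.552). Control array 1 lay inside the EKO range, and the other control arrays lay above it. Its enhancers Pcolce2 (-0.23) and Pcolce (-0.11) and the N-proteinase Adamts3 (-0.02) overlapped between groups.

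Of the crosslinking genes 3 of 4 were lower (median -0.18). Lox, the lysyl oxidase, read 10.96, 11.22, 10.93 and 11.18 in control arrays and 10.85, 10.37, 10.42 and 10.44 in EKO arrays. Its groups did not overlap, as for 2.67% of all genes tested with EKO lower, and EKO array 1 stood nearest to the controls. Its difference of -0.55 (SE 0.12) had an adjusted p of 0.478 in limma, and Loxl1 (-0.29), Loxl4 (-0.06) and Loxl3 (0.01) overlapped between the groups.

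Collagen receptors had 4 of 7 lower (median -0.03). Lair1, an inhibitory collagen receptor of leukocytes, read 6.39, 6.01, 6.07 and 6.52 in control arrays and 6.89, 6.68, 6.43 and 7.07 in EKO arrays, a difference of 0.52 (SE 0.16, limma adjusted p = 0.514) below the neg median. Of its EKO arrays 3 lay above every control. The mean of 4 tested neutrophil markers read 6.51, 6.02, 6.94 and 7.89 in control arrays and 6.68, 9.39, 6.86 and 7.47 in EKO arrays, so that EKO array 2 stood apart, while Lair1 was highest on EKO array 4. The mean of 6 tested macrophage markers read 6.92 to 7.83 in control and 7.22 to 7.91 in EKO arrays, with 4 of 6 lower. The part of leukocytes was not tested. The integrin subunit Itgb1 differed by -0.07 (limma adjusted p = 0.704). Its groups barely lay apart, at 13.6193 to 13.68 in control and 13.52 to 13.6184 in EKO arrays. Of all genes tested 2.67% lay apart with EKO lower. Ddr2 (-0.29) and Mrc2 (0.08) overlapped. The degradation list joins proteinases (Mmp2 at -0.12 and Mmp14 at 0.03) with their inhibitors (Timp2 at -0.11 and Timp3 at -0.12). Of these genes 3 of 4 were lower (median -0.11), a count that gives no direction of degradation.

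**Figure D5:**
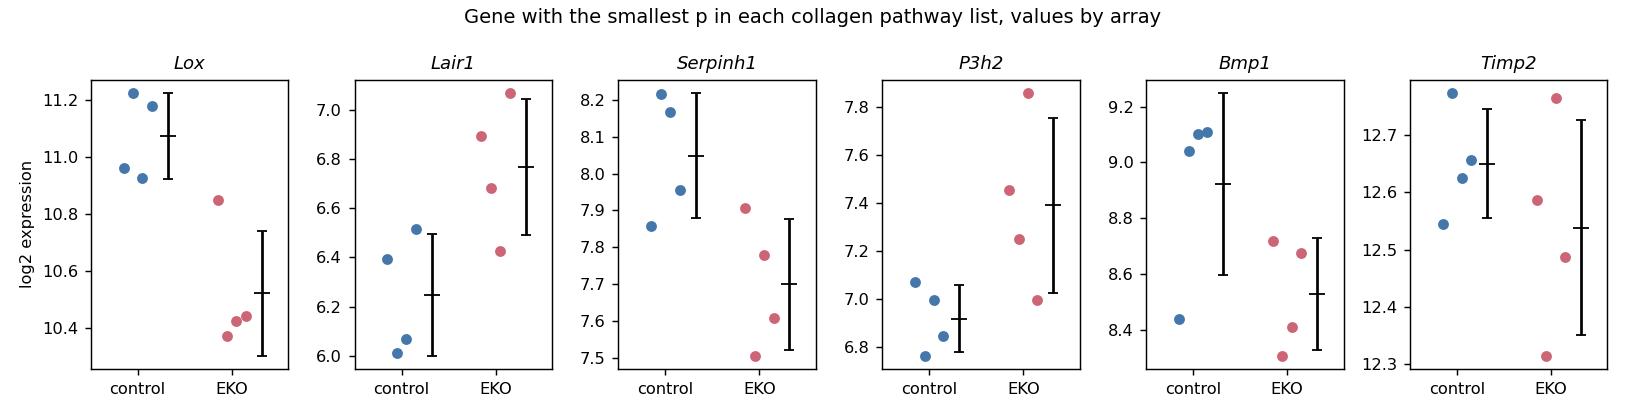
Log2 expression on each array (points) with the group mean and SD (bars) for the gene with the smallest p in each of the 6 collagen pathway lists, 4 arrays a group, on axes that do not start at 0. Lox is the gene of the 6 whose groups lie apart. Bmp1 shows control array 1 among the EKO values.

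Of markers of other cell types 0 passed the threshold. Tested smooth muscle markers had 6 of 9 higher (list mean 7.52 to 7.86 in control and 7.69 to 8.23 in EKO arrays) and adipocyte markers 7 of 8 lower (8.15 to 10.73 and 7.76 to 10.19). Mesothelial markers had 4 of 4 lower, and their list mean was 9.74 on control array 4 and at most 7.73 on any other array. Skeletal muscle markers had 2 of 3 higher and endothelial markers 5 of 9 lower. Of Schwann cell markers 0 of 6, and of chondrocyte markers 1 of 8, passed the level filter, which leaves no Schwann cell level to compare. Over the 8 arrays 63 relations of a tested chain with the smooth muscle, fibroblast or adipocyte mean were computed after the data had been seen, and 0 passed a permutation p adjusted over them. The smallest exact permutation p was that of Col9a2 with the fibroblast mean (r = -0.92, p = 0.000992, adjusted 0.0625; rho = -0.90, exact permutation p = 0.00456, adjusted 0.0958), with r = -0.79 without the 2 arrays farthest from the median (exact permutation p = 0.0708).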

How the data were processed

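Expression was measured on 8 arrays, grouped by sample title. Per the labels, the deposited log2 values are SST-RMA output of Affymetrix's Expression Console; its version and the genome build are not given in the sources used here. Symbols came from the platform annotation, updated through RefSeq (GRCm38.p6; 1135 changed), and RefSeq supplied the sequences. Of 72688 probe sets 30604 had 1 symbol, 2146 several and 33206 were unlisted; the brightest per symbol was used. Genes with a mean above 6.14 were tested over all 16232 with limma 3.58.1 in R 4.3.3 (lmFit, eBayes, Benjamini-Hochberg, threshold 0.05). Correlations used all 40320 pairings. The number of arrays limits the precision. No batch is labelled.

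Members, classes and lists were chosen with earlier results of these data known. The genes named are Mef2c, the 10 tested chains with the smallest p, chains whose groups did not overlap, 16 chains of the arterial wall and the 4 smallest p in each pathway list; other chains are given by difference, or by class. The test was tested on simulated data. Each array held RNA of a single aorta, per the labels.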

Additional observations from a re-analysis of the deposited data

Results flagged for a closer look

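Within the 4 arrays of a group, a value was picked out when its gap to the nearest other array took up more of the group's range than Dixon's critical value for 4 samples. This was so for 9 of 108 groups examined, where chance picks out about 5%, and for 0 groups of the collagen chains examined. Not every chain was examined. Among those left out, control array 1 for Col20a1 and control array 4 for Col24a1 also meet this rule. Among EKO arrays the first stood highest in Lox (10.85, others 10.37 to 10.44), Sec23a (9.92, others 9.58 to 9.61) and Loxl3 (6.86, others 6.73 to 6.75). Control array 1 was the lowest control for Bmp1 (8.44, others 9.04 to 9.11), Mmp14 (7.49, others 7.88 to 7.93) and the smooth muscle marker mean (7.52, others 7.84 to 7.86). Loxl4 was highest on EKO array 3 (7.29, others 6.73 to 6.82), Timp3 lowest on control array 2 (11.96, others 12.85 to 12.90) and the skeletal muscle marker mean highest on control array 4 (8.43, others 6.18 to 6.31).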

How the results depend on the processing

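No setting called any gene, including the fit with the replicate number as a block (0 called; 1259 genes under an unadjusted p of 0.05, against 1449 without it and 1469 without moderation). Same-numbered arrays deviated from their group means with r from -0.08 to 0.11, so no pairing by number was seen. Such a correlation cannot detect a pairing that is weak or that touches few genes. Of 16 named tested chains 12 kept their sign in every alternative run for them (23 settings, of which the 75th percentile filter left only Col23a1, Col4a4 and Col5a2), and the lowest adjusted p was 0.409. The median of the tested chains moved by more than the spread between arrays to -0.22 with the filter at the 75th percentile (3 chains), -0.0253 with quantile normalization, -0.0199 with the smooth muscle covariate, -0.0407 with the fibroblast covariate, -0.0267 with the array median covariate and -0.0451 with centring on all probe sets, added after seeing the data. The fibrillar median was 0.0435 without a filter, -0.22 at the 75th percentile (Col5a2 alone), -0.0432 with the fibroblast and -0.0325 with the array median covariate. The FACIT median was -0.0732 and -0.10 with these covariates, and the network median -0.26 at the 75th percentile (Col4a4 alone). Col1a1 turned to -0.0253 (quantile), -0.0199 (smooth muscle covariate) and -0.0451 (centring on all probe sets), and ranged from -0.0162 (without control array 1) to 0.0658 with single arrays left out. Col4a1 was -0.0110 and -0.0192, and Col4a2 -0.0453 and -0.0156, with the smooth muscle covariate and that centring. With single arrays left out they ranged from -0.0050 to 0.0827 and from -0.0314 to 0.1146, and Col12a1 from -0.3211 to 0.0356. The correlation of Col1a1 and Col1a2 was -0.17 without the 2 farthest arrays and 0.77 with group means removed, the latter added after seeing the data. The permutation p of the latter (adjusted 0.0274) is approximate. The cause of these turns was not tested.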
